A study of Homo sapiens with 6 samples.

Results

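The enzymes that hydroxylate and cross-link collagen were followed in cardiomyocytes that had been differentiated from the established human pluripotent stem cell line WTC11. They comprised the lysyl oxidases LOX, LOXL1, LOXL2, LOXL3 and LOXL4, the lysyl hydroxylases PLOD1, PLOD2 and PLOD3, and the prolyl 4-hydroxylase catalytic subunits P4HA1 and P4HA2. These 10 genes were chosen by symbol for the function of their products, out of 38557 genes listed, with earlier results of these data known. All 10 were found, and all 10 had enough counts to be tested. Of the 6 RNA sequencing libraries, 3 came from cells kept in RPMI plus B27 (RPMI medium below), B27 being a serum-free supplement. The other 3 came from cells kept in DMEM plus fatty acids (DMEM medium below). The labels describe all cells as wild type and name no other treatment, and the time in each medium and the media's composition are not given in the sources used here. The comparison asks how transcript levels differ between these media. Base medium and supplement change together between them, so their parts cannot be told apart. Replicates are numbered 1 to 3 in each medium and are labelled as biological, without saying what separates them, so p-values measure only the spread between these libraries.

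Collagen chains are modified in the endoplasmic reticulum before they fold. Prolyl 4-hydroxylases act on proline and stabilise the collagen helix, and lysyl hydroxylases act on lysine, which prepares sites for sugars and for cross-links. Each of these hydroxylases needs iron, oxygen, 2-oxoglutarate and ascorbate. Lysyl oxidases are copper enzymes that act outside the cell on lysine and hydroxylysine of collagen and on lysine of elastin, and so start the covalent cross-links that stiffen the matrix. In the heart, fibroblasts make most of the fibrillar collagen, while cardiomyocytes contribute basement membrane components.

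The libraries held 23232324 to 31035389 gene counts. In each library the cardiomyocyte genes were abundant: 12 markers, among them TNNT2, MYH6 and MYH7, summed to 30372 to 37999 CPM in RPMI medium and 24586 to 34612 CPM in DMEM medium. CPM are counts scaled to a common library total, with TMM factors between libraries. No cardiomyocyte marker passed the test between media (edgeR, 0 of 12, with 3 at an unadjusted p under 0.05, 3 called by DESeq2 and 2 lower with the replicate block, among them MYH7 at an adjusted p of 0.0359). The stem cell gene NANOG was at 0 in 5 of the 6 libraries, with 1 count in the remaining one. POU5F1, LIN28A and DPPA4 were at no more than 0.904 CPM in any library. TDGF1, also on the list of 5 stem cell markers, was higher, at 14.6 to 57.1 CPM in RPMI medium and 24.2 to 61.4 CPM in DMEM medium. In bulk RNA, fewer cells of a type and less RNA per cell cannot be told apart, which holds for each difference below.

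Of the 10 enzyme genes, 5 fell in DMEM medium at an adjusted p under 0.05 (edgeR quasi-likelihood test, Benjamini-Hochberg over 16107 genes), and 0 rose. They were LOX, LOXL1, LOXL2, PLOD1 and P4HA2, at least 1 from each enzyme family. The same rule called 1.07% of all tested genes lower and 0.292% higher. At an unadjusted p under 0.05, 8 of the 10 passed, against 17.7% of all tested genes in either direction. With the replicate number as a block 6 passed, the additional one being P4HA1, where 3.42% of all genes were called lower. The DESeq2 Wald test called 8 of the 10 lower, all but LOXL4 and PLOD3, against 4.93% of all genes. For 8 of the 10 the CPM of the media did not overlap, all lower in DMEM medium, which held for 12.8% of all tested genes. The median log2 fold change of the 10 was -1.10, against 0.01 over all tested genes. LOXL4 and PLOD3 were the genes whose media overlapped. Each of the 5 calls was narrow, with adjusted p values from 0.0402 to 0.0480. Leaving out 1 library left 0 of the 10 called in 5 of the 6 fits and 2 (LOX and LOXL2) without RPMI medium replicate 3. With library totals alone 2 passed (LOX and PLOD1), and with at least 10 counts in every library 1 did (PLOD1).

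**Figure D1:**
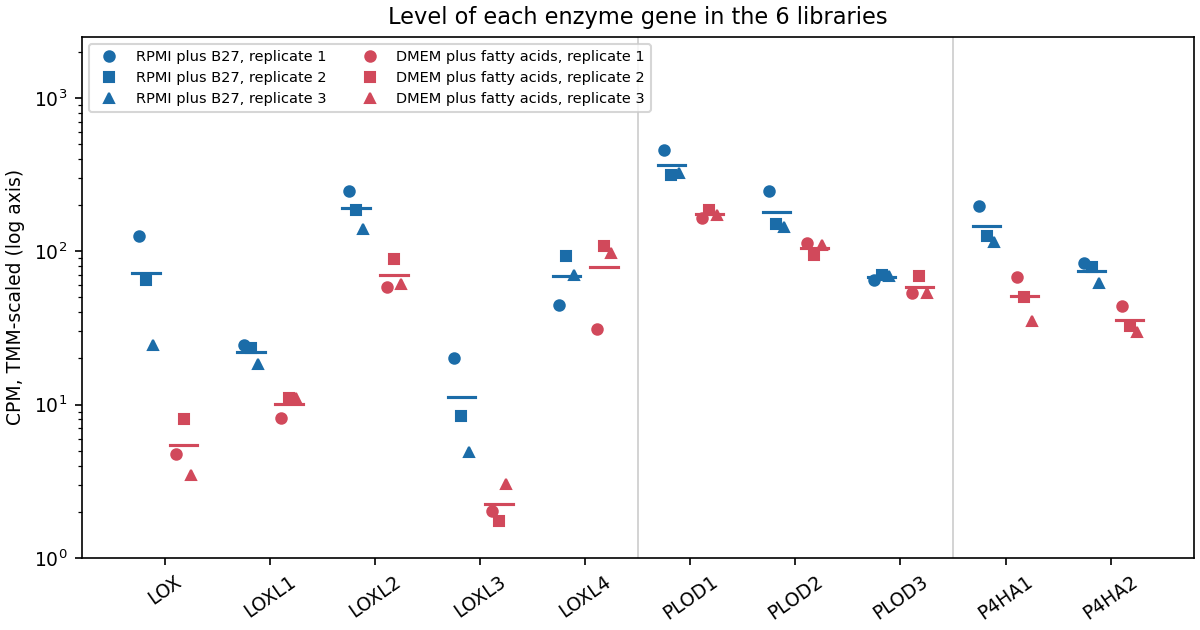
CPM (TMM-scaled, log axis) of each enzyme gene in each library, with RPMI medium in blue, DMEM medium in red, the replicate number as the symbol shape and the mean of 3 libraries as a bar. All 3 red points lie under all 3 blue points for 8 of the 10 genes; LOXL4 and PLOD3 are the exceptions.

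LOX (chr5:122063195-122078259, minus strand, in the GRCh38.p14 gene table, as are the positions of other genes below), the founding lysyl oxidase and an elastin and collagen cross-linker, had the largest fold change of the 10. It measured 125.8, 65.0 and 24.3 CPM in RPMI medium replicates 1, 2 and 3, and 4.74, 8.06 and 3.47 CPM in DMEM medium. The lowest RPMI library was thus still above the highest DMEM library, although the RPMI libraries themselves were widely spread. The means were 71.7 ± 51.1 and 5.42 ± 2.37 CPM (SD, n = 3 each), a log2 fold change of -3.72 ± 0.62 (SE), or 13.2-fold lower, with an edgeR adjusted p of 0.0442. Without RPMI medium replicate 1 the log2 fold change of LOX was -3.04 (adjusted p 0.0838). Between libraries with the same replicate number, the log2 ratios of LOX (DMEM over RPMI) were -4.73, -3.01 and -2.81 for replicates 1, 2 and 3, and the blocked fit gave -3.50 ± 0.39 with an adjusted p of 0.0148.

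LOXL2 and LOXL1 fell with smaller fold changes. LOXL2, a lysyl oxidase-like enzyme with scavenger receptor domains that acts on basement membrane collagen IV, measured 246.3, 184.3 and 139.2 CPM in RPMI medium. In DMEM medium it measured 58.1, 89.1 and 61.4 CPM, a log2 fold change of -1.45 ± 0.25 (edgeR adjusted p 0.0471). LOXL1 (chr15:73926462-73952136, plus strand), which is needed for elastic fibre upkeep, measured 24.6, 23.2 and 18.4 CPM in RPMI medium and 8.18, 11.0 and 11.1 CPM in DMEM medium. Its log2 fold change was -1.13 ± 0.19 (edgeR adjusted p 0.0471). The antisense gene LOXL1-AS1 shares 9.21% of the exon bases of LOXL1 in GENCODE 29. The strand setting of the counting is not given, so how reads in the shared bases were counted is not known.

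LOXL3 and LOXL4 did not pass in the main edgeR fit or with the block, for different reasons in the values. LOXL3 was called lower by DESeq2 (adjusted p 0.000243) and by edgeR without a filter on low counts (adjusted p 0.0256), and LOXL4 by neither. LOXL3 (chr2:74532258-74555702, minus strand) was the lowest of the 10 genes, with 20.2, 8.42 and 4.88 CPM in RPMI medium and 2.02, 1.74 and 3.02 CPM in DMEM medium. The media did not overlap for LOXL3, but its log2 fold change of -2.30 ± 0.54 had an adjusted p of 0.0927 (0.0747 with the block), and it was -1.55 without RPMI medium replicate 1. LOXL3 shares 14.3% of its exon bases with HTRA2 and 4.95% with DOK1, which lie on the opposite strand, and opposite-strand genes also share 7.57% of the exon bases of PLOD3 (ZNHIT1) and 6.45% of those of P4HA2 (P4HA2-AS1). LOXL4 (chr10:98247690-98268194, minus strand) measured 44.3, 92.5 and 69.7 CPM in RPMI medium and 31.0, 107.9 and 97.7 CPM in DMEM medium. Replicate 1 was the lowest LOXL4 library in each medium, and the media overlapped (log2 fold change 0.20 ± 0.46, edgeR adjusted p 0.861). With the block the LOXL4 estimate was 0.07 ± 0.20.

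The make-up of the lysyl oxidase counts was compared as well. LOXL4 gave 9.62%, 24.8% and 27.2% of the counts of the 5 lysyl oxidases in RPMI medium and 29.8%, 49.5% and 55.3% in DMEM medium, with no overlap. LOX gave 27.3%, 17.4% and 9.48% in RPMI medium and 4.55%, 3.70% and 1.96% in DMEM medium, again with no overlap. The share of LOXL2 averaged 52.3% ± 2.63 in RPMI medium and 43.8% ± 10.9 in DMEM medium (SD, n = 3 each) and overlapped, as did those of LOXL1 and LOXL3. These shares are of counts, not of molecules, and were not tested: 3 against 3 libraries cannot give an exact p under 0.1.

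**Figure D2:**
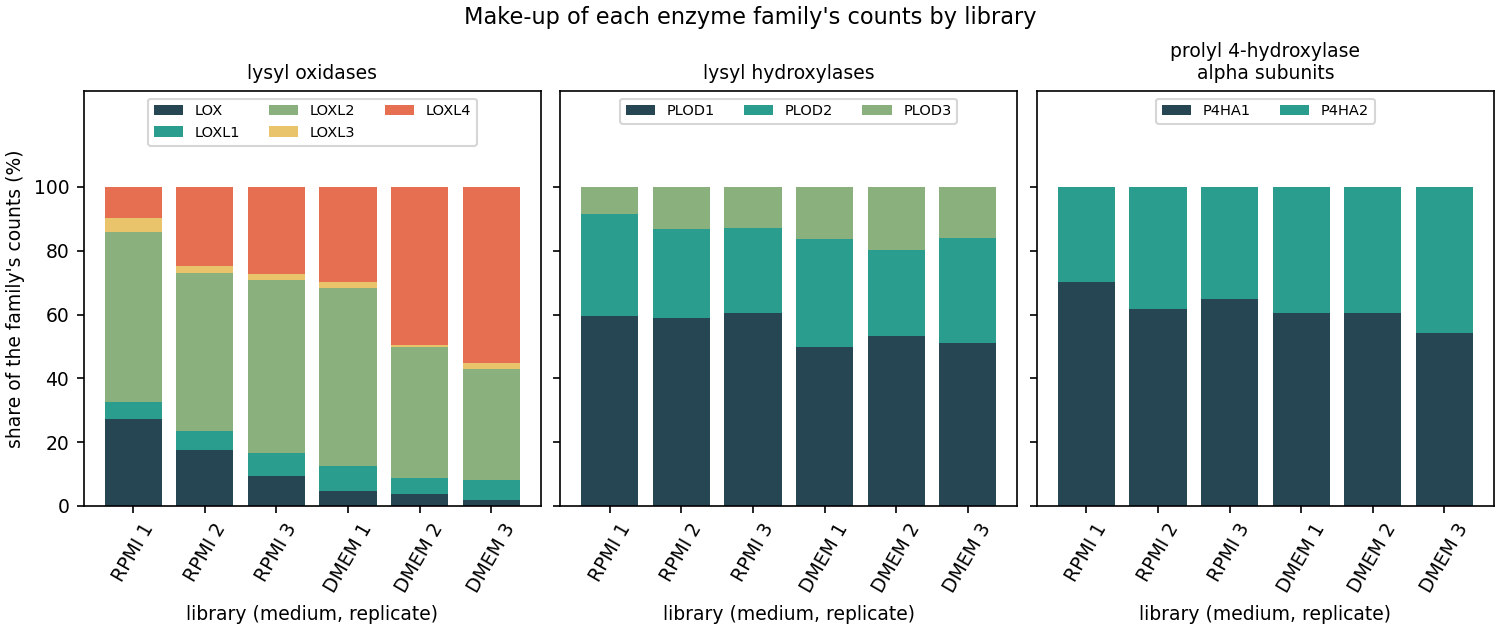
Share (%) of each gene in the summed raw counts of its enzyme family, 1 bar per library, with the media written as RPMI and DMEM and the replicate number. LOXL4 takes 29.8% to 55.3% of lysyl oxidase counts in the DMEM medium libraries against 9.62% to 27.2% in RPMI medium, and PLOD3 takes 16.1% to 19.7% of lysyl hydroxylase counts against 8.44% to 13.1%.

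Among the lysyl hydroxylases, PLOD1 fell, PLOD2 did not pass in edgeR although its media did not overlap, and PLOD3 overlapped between media. PLOD1 (chr1:11934717-11975537, plus strand), which hydroxylates lysines in the helical part of collagen, measured 456.3, 315.0 and 324.0 CPM in RPMI medium. In DMEM medium it measured 165.4, 184.6 and 170.9 CPM, so that every DMEM library was well under every RPMI library. The means were 365.1 ± 79.1 and 173.6 ± 9.92 CPM (SD, n = 3 each), a log2 fold change of -1.07 ± 0.17 and an edgeR adjusted p of 0.0402, the smallest of the 10 genes. PLOD2 (chr3:146069440-146161184, minus strand), the hydroxylase of the collagen telopeptides, measured 245.5, 150.1 and 143.6 CPM against 112.5, 93.9 and 109.4 CPM. Its log2 fold change was -0.77 ± 0.22, with an edgeR adjusted p of 0.141 and 0.0572 with the block. DESeq2 called PLOD2 lower (adjusted p 0.0344). PLOD3 (chr7:101205984-101217581, minus strand), which also carries glycosyltransferase activity toward hydroxylysine, measured 64.7, 70.4 and 69.1 CPM against 53.6, 68.4 and 53.6 CPM. Its log2 fold change was -0.22 ± 0.13 (edgeR adjusted p 0.437), and its log2 ratios in the 3 same-numbered pairs were -0.27, -0.04 and -0.37. Of the lysyl hydroxylase counts, PLOD1 gave 59.6% ± 0.766 in RPMI medium and 51.4% ± 1.69 in DMEM medium, and PLOD3 gave 11.5% ± 2.64 and 17.3% ± 2.08 (SD, n = 3 each). Neither share overlapped between media, while that of PLOD2 did.

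Of the prolyl 4-hydroxylase subunits, P4HA2 fell in the edgeR fits with and without the replicate block. P4HA1 passed in the edgeR fit with the block and not in the main edgeR fit, which has none. It was also called in 2 fits without the block. These were DESeq2 (adjusted p 9.43e-05) and edgeR without a filter on low counts (adjusted p 0.0102). P4HA1 (chr10:73007217-73096866, minus strand), the main catalytic subunit in most tissues, measured 196.0, 125.8 and 114.8 CPM in RPMI medium and 67.6, 49.9 and 35.2 CPM in DMEM medium. Its log2 fold change was -1.52 ± 0.29, with an edgeR adjusted p of 0.0593. Between same-numbered libraries the P4HA1 difference was even, at -1.54, -1.33 and -1.70 on the log2 scale, and with the block its SE was 0.11 and its adjusted p 0.00642, the smallest of the 10 in that fit. P4HA2 (chr5:132190147-132227853, minus strand), the alternative catalytic subunit, measured 83.6, 78.5 and 62.0 CPM against 43.9, 32.5 and 29.6 CPM. Its log2 fold change was -1.08 ± 0.19 (edgeR adjusted p 0.0480), and -1.09 ± 0.11 with the block (adjusted p 0.0131). P4HA2 gave 29.9% to 38.4% of the counts of the pair in RPMI medium and 39.4% to 45.7% in DMEM medium. The shared partner of these subunits, P4HB (protein disulfide isomerase, which keeps the enzyme soluble), was at 530.7, 606.6 and 619.6 CPM in RPMI medium and 679.2, 655.5 and 626.3 CPM in DMEM medium (log2 fold change 0.16 ± 0.13, edgeR adjusted p 0.560).

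**Figure D3:**
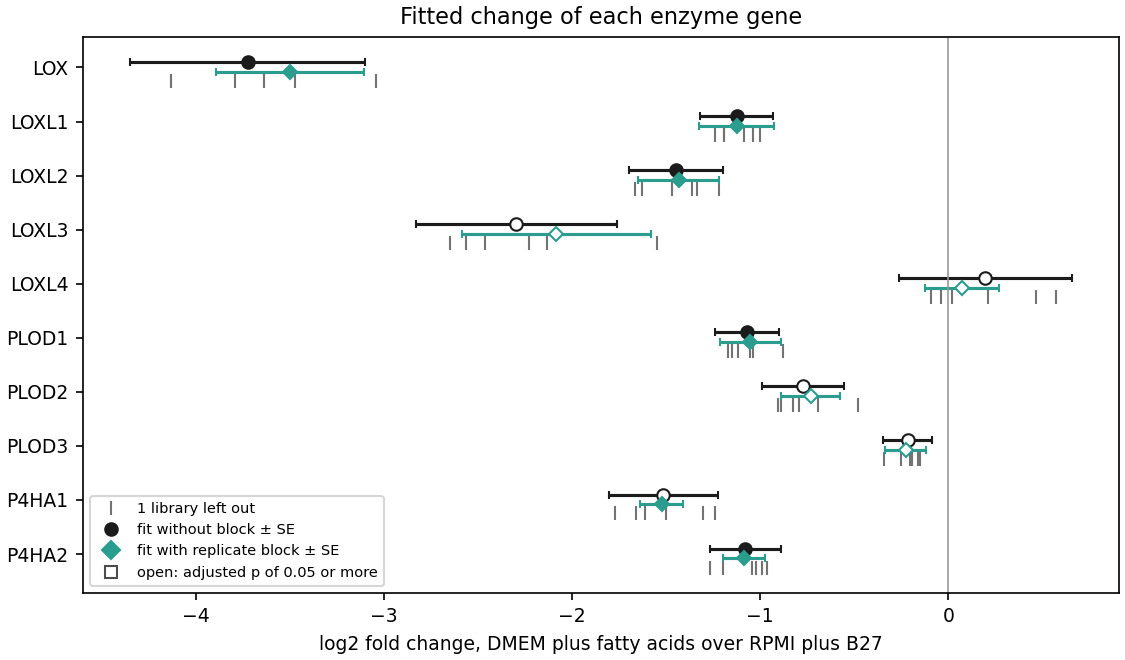
Fitted log2 fold change (DMEM medium over RPMI medium) of each enzyme gene without the replicate block (circles) and with it (diamonds), bars showing the SE, filled where the adjusted p is under 0.05, and grey ticks giving the 6 fits that leave out 1 library. LOX lies lowest at -3.72, LOXL4 lies at 0.20, and P4HA1 is filled only with the block.

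Levels were compared between genes as CPM per kilobase of the longest coding transcript in GENCODE 29, which depends on the transcript model chosen. In RPMI medium, PLOD1 stood highest at 124.2 ± 26.9 CPM per kilobase (SD, n = 3), followed by LOXL2 at 53.5 ± 15.2, P4HA1 at 51.2 ± 15.5 and PLOD2 at 48.2 ± 15.3 CPM per kilobase, which did not differ among themselves beyond their spread. PLOD3 (23.3 ± 1.03), P4HA2 (22.3 ± 3.38) and LOXL4 (18.9 ± 6.60) formed a middle band, also within their spread. LOX (14.1 ± 10.01) overlapped that band, at 24.7 CPM per kilobase in replicate 1 and 4.77 in replicate 3. LOXL1 (9.39 ± 1.39) lay within the spread of LOX, and LOXL3 (3.19 ± 2.28) had the lowest mean. In DMEM medium, PLOD1 was again highest at 59.1 ± 3.37 CPM per kilobase and LOXL3 again lowest at 0.646 ± 0.193, with PLOD2 (28.2 ± 2.68) next to PLOD1 and P4HA2 (10.6 ± 2.25), LOXL1 (4.30 ± 0.707) and LOX (1.06 ± 0.465) above LOXL3. There LOXL4 (21.6 ± 11.4), PLOD3 (20.1 ± 2.92), LOXL2 (19.6 ± 4.80) and P4HA1 (17.9 ± 5.70) lay within their spread, whereas in RPMI medium LOXL2 and P4HA1 lay above PLOD3 and LOXL4 by more than their SD.

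The RPMI medium libraries were uneven in these genes. Replicate 1 was the highest of the 3 for 8 of the 10 genes, all but LOXL4 and PLOD3, for which it was the lowest. Of 10 fibroblast markers, 8 were also highest in replicate 1, the other 2 (DDR2 and MFAP5) in replicate 2. The 10 summed to 3184 CPM in RPMI medium replicate 1, 1497 and 1361 CPM in replicates 2 and 3, and 266.0 to 377.1 CPM in DMEM medium, of which COL1A1 alone gave 2914, 1323 and 1251 CPM in RPMI medium and 211.8 to 333.5 CPM in DMEM medium. Without COL1A1 the sum was 269.7, 174.1 and 110.3 CPM in RPMI medium and 43.5 to 54.2 CPM in DMEM medium. Of these markers 9 could be tested, and 3 fell (COL1A1, DCN and MFAP5; 6 fell with the block, and 0 to 4 when 1 library was left out), with a median log2 fold change of -2.97. FAP, a marker of activated fibroblasts, was at 0 in all DMEM medium libraries and at most 0.603 CPM elsewhere, and DCN (decorin) was at 0 in DMEM medium replicate 1. PDGFRA, a fibroblast receptor, stayed present at 16.8 to 23.7 CPM in DMEM medium against 28.3 to 72.3 CPM (edgeR adjusted p 0.117, and 0.0281 with the block at -1.18 ± 0.18), and DDR2, a collagen receptor, had a log2 fold change of 0.31 ± 0.48. Smooth muscle markers summed to 1995 to 2375 CPM in RPMI medium and 622.9 to 1404 CPM in DMEM medium, and 1 of 7, LMOD1, fell (2 with the block). All 7 had a negative log2 fold change, with a median of -1.28, and 5 had an unadjusted p under 0.05 in edgeR. Epicardial markers were scarce throughout, at 7.15 to 13.1 CPM in sum in RPMI medium and 3.10 to 5.96 CPM in DMEM medium. Of 4 tested, 3 had a negative log2 fold change, with a median of -1.06. None of the 4 passed without the block, and 1, TBX18, fell with it (-2.10 ± 0.32, edgeR adjusted p 0.0271). Of the endothelial markers, CDH5 and ERG were at 0 in all DMEM medium libraries and no higher than 0.414 CPM elsewhere, while KDR, which early cardiac cells also express, was at 27.5 to 238.9 CPM in RPMI medium and 114.5 to 463.2 CPM in DMEM medium. KDR did not pass without the block (edgeR adjusted p 0.434) and rose with it (1.49 ± 0.21, adjusted p 0.0245), its log2 ratios in the same-numbered pairs being 2.06, 1.48 and 0.96. It was the 1 positive of 4 endothelial markers tested, of which 0 passed without the block, with a median of -1.55. EMCN had -4.23 ± 1.01 and fell with the block (-3.95 ± 0.56, edgeR adjusted p 0.0237). TEK had -2.13 ± 0.51 and TIE1 -0.97 ± 0.53, and neither passed in either fit. The part of these cell type markers in the enzyme differences was not tested.

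The substrates of the enzymes were described from lists of related genes. Of 8 fibrillar collagen chains tested, 5 fell and 0 rose, with a median log2 fold change of -1.63. The count that fell was 6 with the block, 3 with library totals alone and 0 to 3 when 1 library was left out. COL5A2 (collagen V, which nucleates fibrils) went from 697.4 ± 136.0 to 205.0 ± 31.2 CPM (SD, n = 3 each; log2 fold change -1.77 ± 0.19), COL3A1 from 2137 ± 696.0 to 448.1 ± 183.3 CPM (-2.25 ± 0.38), and COL1A1 and COL11A1 had -2.72 ± 0.38 and -4.47 ± 0.73. COL2A1, the collagen of cartilage that is also made in embryonic heart, was at 1197 to 1509 CPM in RPMI medium and 1488 to 1644 CPM in DMEM medium (0.21 ± 0.15). Without RPMI medium replicate 1 the log2 fold change of COL11A1 was -3.23. Among 9 basement membrane and beaded collagen chains none passed without the block (5 at an unadjusted p under 0.05, 4 called by DESeq2), and 1, COL6A3, passed with it (edgeR adjusted p 0.0930 without the block and 0.0223 with it). The median of these chains was -0.65, and COL18A1 (collagen XVIII) had -0.65 ± 0.17 (edgeR adjusted p 0.116). COL6A3 measured 82.6, 9.74 and 5.89 CPM in RPMI medium and 0.830 to 1.98 CPM in DMEM medium (-4.68 ± 1.09, and -2.61 without RPMI medium replicate 1).

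Elastic fibres hold elastin, the other substrate of lysyl oxidases, beside scaffold proteins. Of 14 elastic fibre genes tested, elastin not among them, 3 fell and 0 rose, with a median of -0.64. The count that fell was 4 with the block, 2 with library totals alone and 0 to 3 when 1 library was left out. EFEMP1 (fibulin 3) had a log2 fold change of -4.07 ± 0.63, FBN1 (fibrillin 1) -3.25 ± 0.51 and MFAP5 (a microfibril glycoprotein) -2.97 ± 0.52. Without RPMI medium replicate 1, EFEMP1 had -3.36 (adjusted p 0.0657) and FBN1 -2.58 (adjusted p 0.0543) in edgeR. EFEMP2 (fibulin 4, which brings LOX to elastin) was at 146.1 to 166.3 CPM in RPMI medium and 134.5 to 181.1 CPM in DMEM medium (0.02 ± 0.14). Elastin itself, ELN, measured 9.01, 1.91 and 0.224 CPM in RPMI medium and was at 0 in DMEM medium replicates 1 and 2, too low to test. Of 11 genes of procollagen and lysyl oxidase processing, 1 fell (4 with the block, 0 to 1 when 1 library was left out), with a median of -0.82. At an unadjusted p under 0.05 in edgeR 5 passed, and DESeq2 called 5. The 1 that fell was POSTN (periostin, a scaffold for the protease that activates LOX), at -2.95 ± 0.50, or -2.24 (edgeR adjusted p 0.0543) without RPMI medium replicate 1. That protease, BMP1, measured 63.6 to 105.7 CPM in RPMI medium and 51.5 to 83.0 CPM in DMEM medium (-0.27 ± 0.24, edgeR adjusted p 0.604). FN1 (fibronectin), the most abundant gene of this list, went from 4223 ± 2273 to 713.3 ± 328.0 CPM (SD, n = 3 each). Its log2 fold change was -2.57 ± 0.47 (edgeR adjusted p 0.0540, and 0.0486 with the block).

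Partners that fold and modify procollagen in the endoplasmic reticulum had a median nearer 0. Of 13 tested, none passed without the block (4 at an unadjusted p under 0.05, 1 called by DESeq2), 1 fell with it, and the median log2 fold change was -0.17. The 1 was P3H3, a prolyl 3-hydroxylase family member that pairs with lysyl hydroxylase 1, at 29.4, 13.5 and 10.9 CPM in RPMI medium and 4.13, 3.88 and 4.92 CPM in DMEM medium (-2.05 ± 0.39, edgeR adjusted p 0.0583 and 0.0357 with the block). FKBP10, a collagen chaperone that supports telopeptide lysine hydroxylation, had -0.48 ± 0.16, and SERPINH1 (HSP47, the collagen-specific chaperone) -0.17 ± 0.16. Of 9 tested genes of copper, ascorbate, iron and 2-oxoglutarate supply 1 rose and 0 fell, with a median of 0.00. It was IDH1, the cytosolic enzyme that makes 2-oxoglutarate, at 64.4 to 82.2 CPM in RPMI medium and 122.4 to 181.4 CPM in DMEM medium (1.00 ± 0.18, edgeR adjusted p 0.0492). The call of IDH1 was lost with RLE scaling (adjusted p 0.0503), with at least 10 counts in every library (0.0571) and in each of the 6 fits that leave out 1 library (0.0961 to 0.122). The copper pump ATP7A and copper chaperone ATOX1, which supply copper to secreted enzymes, had 0.11 ± 0.13 and 0.00 ± 0.16, and the ascorbate transporter SLC23A2 had -0.02 ± 0.16.

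**Figure D4:**
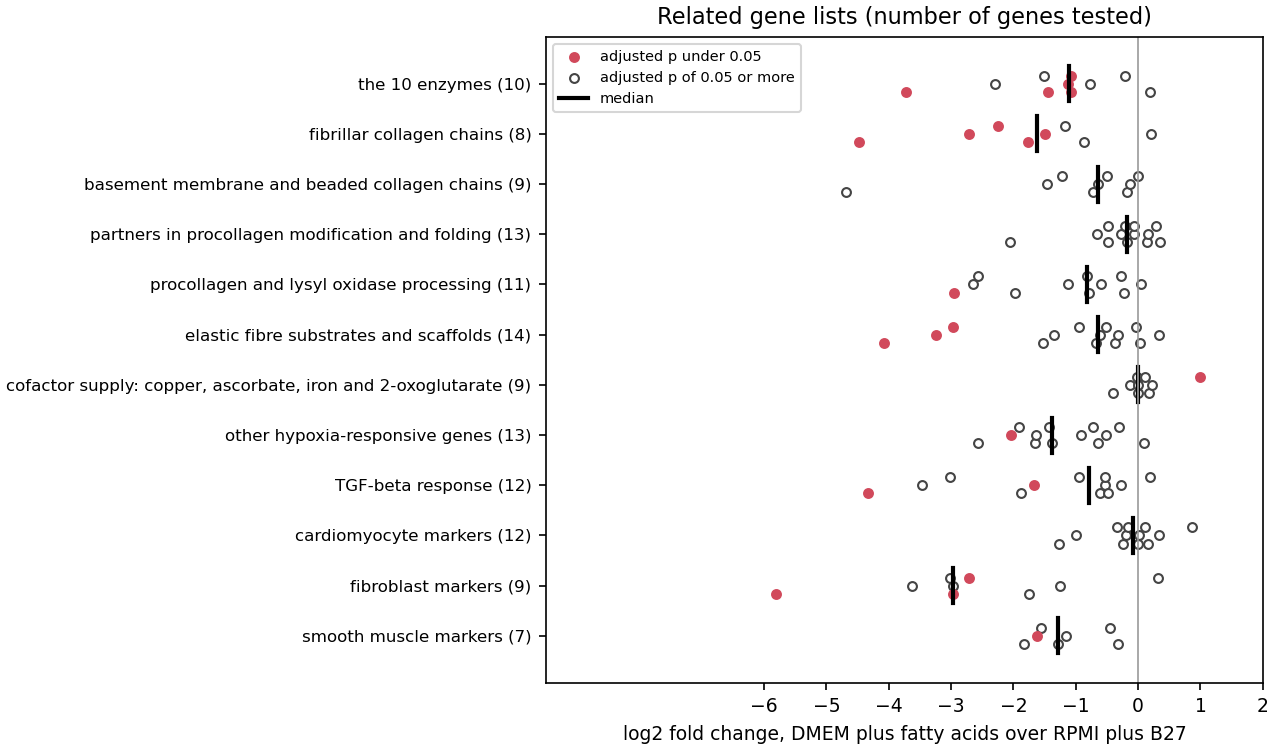
Log2 fold change (DMEM medium over RPMI medium) of each tested gene of the enzyme group, of 8 lists of related genes and of 3 lists of cell type markers, filled where the adjusted p is under 0.05, with the median as a black bar. The medians lie at -1.10 for the 10 enzymes, -1.63 for fibrillar collagens, -0.17 for folding partners, 0.00 for cofactor supply and -2.97 for fibroblast markers.

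LOX, PLOD1, PLOD2, P4HA1 and P4HA2 are known targets of hypoxia-inducible factors, and hypoxia-responsive genes outside the collagen pathway were listed beside them. Of 13 tested, 1 fell (7 with the block, 0 to 2 when 1 library was left out) and 0 rose, with a median of -1.38. At an unadjusted p under 0.05 in edgeR 11 passed, and DESeq2 called 9. BNIP3, a mitophagy receptor, measured 275.6, 175.9 and 137.5 CPM in RPMI medium and 66.7, 39.1 and 37.7 CPM in DMEM medium (-2.04 ± 0.32, edgeR adjusted p 0.0402). The oxygen sensors EGLN1 and EGLN3, hydroxylases of the same cofactor class, had -0.72 ± 0.17 and -1.64 ± 0.44, with edgeR adjusted p values of 0.0879 and 0.124, and 0.0215 and 0.00833 with the block. SLC2A1 and ERO1A had -1.91 ± 0.41 and -1.38 ± 0.35, with edgeR adjusted p values of 0.0786 and 0.109, and 0.00613 and 0.0355 with the block. VEGFA and ADM, also hypoxia-responsive, had the smallest changes of the 13, at -0.30 ± 0.46 and 0.09 ± 0.29, and ADM was the only positive one. Genes of the response to TGF-beta, a strong inducer of matrix genes in fibroblasts, fell in 2 of 12 tested (6 with the block, 0 to 3 when 1 library was left out) and rose in 0, with a median of -0.79. They were TGFBI (-4.34 ± 0.66, and -3.43 with an edgeR adjusted p of 0.0523 without RPMI medium replicate 1) and PMEPA1 (-1.67 ± 0.23). The part of either response in the enzyme differences was not tested.

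The promoter windows of LOX, PLOD1, PLOD2 and P4HA1 are printed because these genes had no overlap between media and hold the core letters that hypoxia-inducible factors bind, ACGTG or GCGTG. The windows are the 250 bases before the most upstream start in the RefSeq promoter table used (GRCh38.p14), 5′ to 3′ on the gene's strand, with matches on either strand in capitals.
LOX (chr5:122078260-122078509, minus strand): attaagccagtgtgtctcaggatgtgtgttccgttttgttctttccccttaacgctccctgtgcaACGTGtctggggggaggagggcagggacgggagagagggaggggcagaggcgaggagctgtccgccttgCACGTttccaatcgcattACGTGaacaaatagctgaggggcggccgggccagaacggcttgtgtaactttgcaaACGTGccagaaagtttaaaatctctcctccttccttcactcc
PLOD1 (chr1:11934467-11934716, plus strand): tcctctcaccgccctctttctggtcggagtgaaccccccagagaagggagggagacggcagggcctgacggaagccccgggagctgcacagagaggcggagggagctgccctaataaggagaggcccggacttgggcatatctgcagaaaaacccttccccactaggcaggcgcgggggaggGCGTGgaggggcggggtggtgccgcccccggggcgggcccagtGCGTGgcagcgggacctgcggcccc
PLOD2 (chr3:146161185-146161434, minus strand): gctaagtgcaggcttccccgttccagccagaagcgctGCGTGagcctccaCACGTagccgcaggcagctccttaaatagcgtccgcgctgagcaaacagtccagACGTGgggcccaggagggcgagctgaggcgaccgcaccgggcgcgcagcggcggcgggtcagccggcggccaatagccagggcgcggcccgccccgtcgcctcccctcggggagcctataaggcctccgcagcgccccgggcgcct
P4HA1 (chr10:73096867-73097116, minus strand): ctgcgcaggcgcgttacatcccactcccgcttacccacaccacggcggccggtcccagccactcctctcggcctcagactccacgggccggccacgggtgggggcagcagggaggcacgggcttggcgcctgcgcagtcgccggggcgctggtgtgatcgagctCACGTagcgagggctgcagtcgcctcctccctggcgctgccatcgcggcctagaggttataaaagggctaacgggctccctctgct
LOX held 4 matches, all ACGTG, PLOD2 held 3, PLOD1 held 2, both GCGTG, and P4HA1 held 1, an ACGTG on the other strand. No 2 matches overlapped. Of the 9 members with a window in the table, 4 held at least 1 match, among 27305 windows of all genes of which 43.1% did. At least 3 matches were found in 7.84% of all windows. LOXL1, LOXL4 and PLOD3 held none, which says only that these letters are not in those windows. The windows of LOXL3 and P4HA2 also held none, but they lie inside the genes, 1760 and 762 bases from the outermost ends in the gene table, so the sequence before those ends was not searched.

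Genes with the most similar pattern were found by the root mean square difference of centred log2 CPM over the 6 libraries, among 10027 other genes with at least 10 CPM on average. For LOX these were EFEMP1 (0.25), STC1 (stanniocalcin 1, 0.32) and EDN1 (endothelin 1, 0.41). EDN1 measured 30.4, 14.2 and 12.2 CPM in RPMI medium and 1.29, 1.74 and 0.978 CPM in DMEM medium. For PLOD1 they were C22orf23 (0.095), MTCL1 (0.10) and C4orf3 (0.11), and for P4HA2 they were TMEM45A (0.12), FAM216A (0.15) and TPM2 (beta tropomyosin, 0.15).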

How the data were processed

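The authors deposited a file for each library with unnormalized counts, whose rows are gene symbols. STAR, HTSeq and hg38 are named in the submitters' processing notes, and versions, annotation and strand setting are not given in the sources used here. Per the labels' protocols, the library kit was stranded and selected mRNA. The 5 summary rows were left out; reads outside any gene came to 5.44% to 7.57%, to several genes 3.90% to 4.15% and to several places 3.05% to 4.10% of each library.

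Counts were filtered with filterByExpr (minimum count 10, total 15), scaled by TMM and tested with edgeR 4.0.16 in R 4.3.3 over all 6 libraries (Benjamini-Hochberg, threshold 0.05); SE values are those implied by the F statistic. DESeq2 1.42.0 was an alternative. The fits were tested on simulated data. Deviations from the medium mean correlated at 0.31, 0.43 and 0.37 for libraries with the same replicate number in the titles and at -0.24 to -0.14 for others. The labels do not say what a number shares, so the main fit has no block and leaves such a pairing out. The fit with the replicate block was an alternative, with 2 residual degrees of freedom against 4. Its value is given where it changes a call that the text states. No 2 libraries agreed within sampling noise (smallest chi-square per degree of freedom 29.4).

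Members, lists and tests were chosen with earlier results of these data known. Named are all members, up to 4 called genes of each related list (up to 2 by smallest p where none was called) and the 3 genes most like the member with the smallest p of each family. COL2A1, P4HB, EFEMP2, ELN, BMP1, FN1, SERPINH1, ATP7A, ATOX1, SLC23A2, EGLN1, EGLN3, SLC2A1, ERO1A, VEGFA and ADM, and the markers named, were chosen after their values were seen. LTBP2, MFAP5 and COL1A1 each stand in 2 lists. Counts cover counting error only as far as reads are independent, without molecular identifiers, and a count of 0 allows up to 3 counts (0.0889 to 0.129 CPM).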

Additional observations from a re-analysis of the deposited data

How the results depend on the processing

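The direction of LOX, LOXL1, LOXL2, LOXL3, PLOD1, PLOD2, PLOD3, P4HA1 and P4HA2 was the same in all 12 alternatives; LOXL4 was at -0.04 without RPMI plus B27 replicate 1 and at -0.094 without DMEM plus fatty acids replicate 2, and ran from -0.094 to 0.57 over the 6 fits that leave out 1 library. How many of the 10 genes passed (5) did depend on the processing. It was 5 with RLE scaling, 2 (LOX and PLOD1) with library totals alone, 7 without a filter on low counts, 1 (PLOD1) with at least 10 counts in every library, 8 by the DESeq2 Wald test and 6 with the replicate block. It was 0 to 2 when 1 library was left out, with fewer libraries in the fit. Over all genes, 219 passed (47 higher, 172 lower). This count was 539 without a filter, 119 with at least 10 counts in every library, 1237 by DESeq2, 770 with the replicate block and 3 to 131 when 1 library was left out. Library totals alone gave 74 higher and 128 lower and moved the median over all genes, as a log2 fold change, from 0.01 to 0.12 and that of the 10 enzymes from -1.10 to -0.99. The cause of the other shifts was not tested. The replicate block changed no call among the 10 enzymes other than that of P4HA1. Each difference in family shares moved by less than the larger of the SDs of the 2 media under each alternative. When 1 library was left out, those of LOX (-18.9 to -10.04 percentage points), LOXL2 (-14.5 to -3.95), LOXL3 (-1.83 to -0.595) and PLOD1 (-9.05 to -7.38) moved by more than the smaller SD, and that of LOXL1 (0.160) ran from -0.570 to 0.827. With 3 libraries a medium and LOX spread from 24.3 to 125.8 CPM in RPMI plus B27, the number of libraries limits precision, and each of the 10 enzymes had at least 10 counts in every library.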
